A study of Mus musculus with 12 samples.

Results

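Chemokines and their receptors were examined as one gene family in Myc-CaP cells and in Myc-CaP tumors, with and without the degrader YJ1206. Members were genes whose symbol is Ccl, Cxcl, Xcl, Cx3cl, Ccr, Cxcr, Xcr, Cx3cr or Ackr followed by a number, and 60 such genes of the 40220 listed in either table are described. They comprise 39 ligands, 17 signaling receptors and 4 atypical receptors. The identifier of Ccl21d carries another symbol in the tumor table and was at 0 counts in all 12 libraries, so 59 members were found by name in the tumors.

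Myc-CaP cells were derived from prostate cancer in mice with a human MYC transgene driven in prostate epithelium, and all 4 groups carry it. YJ1206 is a proteolysis-targeting chimera, which directs the transcriptional kinases CDK12 and CDK13 to degradation. Cultured cells received DMSO or YJ1206 at 1 μM for 24 hours. Subcutaneous tumors grew in male FVB mice, which keep their immune system, and the mice were dosed orally with vehicle or with YJ1206 at 100 mg/kg, 3 times per week. The age of the mice and the length of dosing were not given in the sources used here. Each group had 3 libraries, and the experiment addresses whether loss of CDK12/13 switches on STING signaling, a pathway that leads to chemokine release.

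Chemokines are small secreted proteins that guide leukocytes along a gradient through G protein-coupled receptors. Many ligands share a receptor: CXCR2 binds a set of neutrophil attractants, CXCR3 binds the interferon-inducible ligands that draw activated T cells, and CCR2 binds monocyte attractants. Atypical receptors bind chemokines without G protein signaling and remove them. In tumors both cancer cells and host cells make ligands, while most receptors sit on leukocytes. Both are from mice here, so the tables cannot assign a tumor transcript to cancer or host cells, and in tumor RNA fewer cells of a type and less RNA per cell cannot be told apart.

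The libraries held 13936902 to 18519926 estimated counts in the cells and 15391544 to 26928365 in the tumors, and 3 counts then equal 0.111 to 0.215 CPM (counts scaled to a library of 1000000). In the cells, the leukocyte marker Ptprc was at 0 counts in all libraries, and so was the epithelial marker Epcam, while Krt8, a keratin of simple epithelia, averaged 3.00 CPM with DMSO and 32.4 with YJ1206. DMSO and YJ1206 cells carry library names from separate number series, and a batch of libraries cannot be told apart from the treatment there. Among tumors, library 3 of each group lay between libraries 1 and 2 for 90.5% (vehicle) and 86.1% (YJ1206) of the genes that differed at least 1.5-fold between those libraries, against 27.2% to 55.9% for the other tumor libraries. Whether library 3 came from a separate tumor is not known, so tumor results are also given from libraries 1 and 2 alone. Vehicle libraries 1 and 2 also differed in sums of marker genes. In vehicle libraries 1, 2 and 3, 7 fibroblast markers summed to 735, 226 and 532 TPM (transcripts per 1000000, scaled for gene length). In the same order, 6 leukocyte markers summed to 140, 352 and 228 TPM, so neither library 1 nor library 2 was shown to be an outlier. Fits without vehicle library 1 or 2 keep library 3, so they may understate the spread between tumors.

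A member was called detected with at least 10 counts in all 3 libraries of a group. This held for 39 members in tumors and for 14 in cells, and all 14 were also detected in tumors. By group, 13 were detected in DMSO cells, 11 in YJ1206 cells, 34 in vehicle tumors and 37 in YJ1206 tumors. The rule is a fixed count and is stricter for smaller libraries. YJ1206 cell libraries held 13936902 to 14869592 counts against 18198086 to 18519926 with DMSO, and vehicle tumor library 3 held 15391544. These numbers of detected members are therefore not read as differences between groups. The 21 members that were not detected were the ligands Ccl1, Ccl19, Ccl20, Ccl21a, Ccl21b, Ccl21d, Ccl26, Ccl27b, Cxcl3, Cxcl13 and Xcl1, the receptors Ccr3, Ccr6, Ccr7, Ccr10, Cxcr1, Cxcr3, Cxcr5 and Cxcr6, and the atypical receptors Ackr1 and Ackr2. Of these, Ccl19, Ccl20, Ccl21b, Ccl21d, Ccl26 and Ccl27b were at 0 counts in all 12 libraries. Ackr2, a scavenger of inflammatory CC chemokines, was closest to the limit, with 8 to 11 counts in vehicle tumors and 9 to 20 in YJ1206 tumors.

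**Figure D1:**
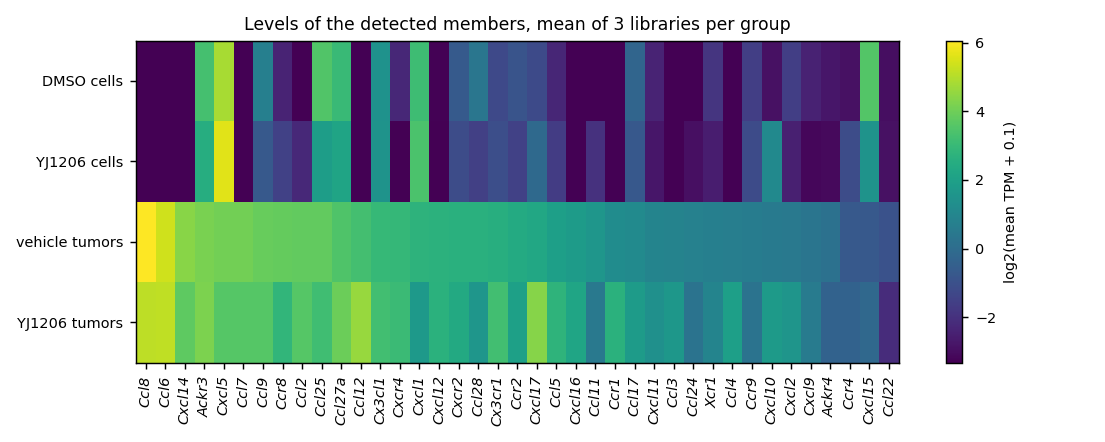
Mean level of the 39 detected members in each of the 4 groups, as log2(mean TPM + 0.1) over 3 libraries, ordered from left to right by the level in vehicle tumors. Most of the family is dark in the cell rows, where Cxcl5 is the brightest, and lit in the tumor rows, where Ccl8 and Ccl6 lead.

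The untreated cells expressed a short list of ligands and hardly any receptor. In DMSO cells the neutrophil attractant Cxcl5 led at 28.7 ± 0.739 TPM (SD, n = 3), a level scaled for gene length, and its range did not meet that of the next member. Cxcl15, another attractant of neutrophils, stood at 11.7 ± 0.894 TPM, Ccl25, the ligand of CCR9, at 11.4 ± 1.47, the atypical receptor Ackr3 at 9.70 ± 1.43, Cxcl1 at 8.64 ± 1.5 and Ccl27a at 8.20 ± 1.03. Neighbors in this order from Cxcl15 to Ccl27a overlapped in range. Cx3cl1 followed at 2.62 TPM, Ccl9 at 1.57 and Ccl28 at 1.17. The receptors Cxcr2, Ccr2, Cx3cr1 and Ccr9 were at 0.236 to 0.524 TPM, and the 17 receptors summed to 1.76 to 2.04 TPM against 75.2 to 76.9 for the 39 ligands.

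Tumors held more of both. In vehicle tumors the ligands summed to 196 to 349 TPM and the receptors to 43.1 to 47.4. Ccl8 at 66.5 ± 33.0 TPM and Ccl6 at 41.4 ± 15.9, both attractants of myeloid cells, ranked first, and their ranges overlapped. Cxcl14 came next at 20.8 ± 5.36, Ackr3 at 17.7 ± 2.02 and Cxcl5 at 16.5 ± 2.94. The leading receptor was Ccr8, which marks regulatory T cells among others, at 14.1 ± 1.95 TPM, followed by Cxcr4, the CXCL12 receptor, at 7.41 ± 1.19 and Cxcr2 at 6.12 ± 0.298. The cell and tumor tables were made separately, so these levels stand side by side without a test.

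In cultured cells YJ1206 was accompanied by higher Cxcl5, Cxcl1, Cxcl10, Cx3cl1 and Ccr9 and by lower Cxcl15, Ccl28, Ccl25 and Ccl9. These are 9 of the 14 detected members, all of which could be tested with edgeR's quasi-likelihood test and Benjamini-Hochberg adjustment over 11826 genes, with 5 higher and 4 lower. Most genes changed in this comparison: 76.1% of those tested passed an adjusted p of 0.05, 37.8% higher and 38.3% lower, so the share of members called did not exceed the background. The median log2 fold change was -0.18 over the members and -0.02 over all genes. The split rests on the scaling: the 14 members gave 3 higher and 6 lower with total counts in place of TMM factors, 2 and 6 with limma on log2(TPM + 1), and 2 and 7 on log2(TPM + 0.1), where the median of all genes was -0.20, -0.24 and -0.30. No called member changed direction with scaling, but Cx3cl1 and Ccr9 lost their calls with total counts and on TPM, and Cxcl1 lost its call on TPM. Each of these scalings is relative to the other transcripts of a library, so higher and lower are relative too. A change in total RNA per cell was not measured.

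**Figure D2:**
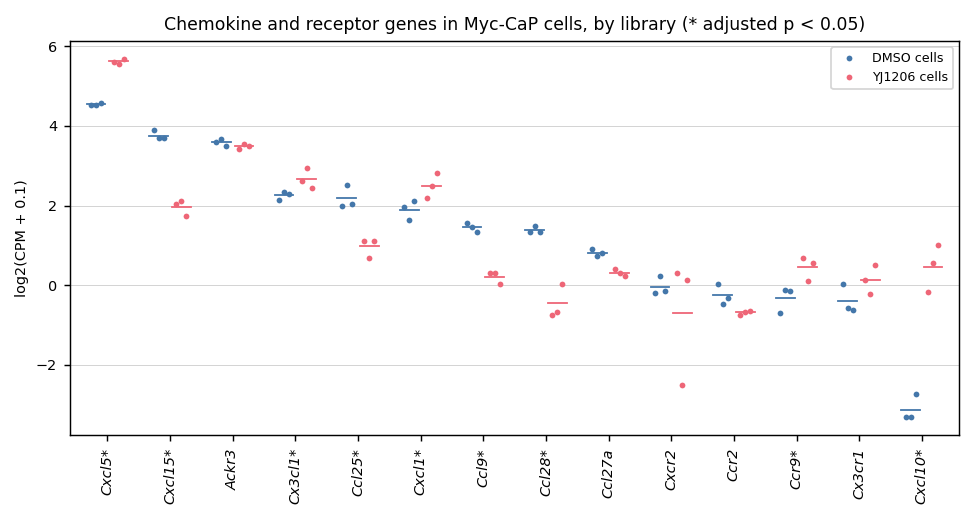
The 14 members detected in cells, as log2(CPM + 0.1) in each DMSO and YJ1206 library (points) with the mean of 3 (line), ordered by the DMSO mean, where an asterisk marks an adjusted p under 0.05. The groups of Cxcl5, Cxcl15, Ccl25, Ccl9, Ccl28 and Cxcl10 are separate, and the lone low point of Cxcr2 is YJ1206 library 2.

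Neutrophil attractants of the CXC family moved in opposite directions. Cxcl5 was at 22.9, 23.0 and 23.7 CPM in DMSO and at 49.0, 47.3 and 51.5 CPM in YJ1206 libraries. The groups were far apart, and the fold change was 2.12 (log2 1.09 ± 0.06 SE, adjusted p = 5.30e-15 by edgeR). Cxcl15 went the other way, from 14.7, 12.9 and 12.8 CPM to 4.0, 4.22 and 3.23, without overlap. Its log2 fold change was -1.81 ± 0.13 (adjusted p = 1.38e-12 by edgeR), and its level per length fell from the second rank among members to the seventh. Cxcl1 was at 3.79, 2.99 and 4.23 CPM in DMSO and 4.43, 5.50 and 6.92 in YJ1206 libraries, so every treated library was higher though the nearest values were close. Its log2 fold change of 0.61 ± 0.19 passed (adjusted p = 0.00489 by edgeR), but not without YJ1206 library 3 (0.44, adjusted p = 0.0629) nor on TPM (0.25, adjusted p = 0.212). Summed per length, the 5 ligands of this class went from 47.2 to 51.4 TPM in DMSO to 60.8 to 66.3 TPM in YJ1206 cells. Cxcl2 and Cxcl3 were not detected in the cells.

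Cxcl10, an interferon-inducible CXCR3 ligand that attracts T cells, was the member that appeared with treatment. Its counts were 0, 0 and 1 with DMSO and rose to 11, 18 and 25 with YJ1206. Set against the limit of 3 counts per library, the rise was at least 8.85-fold (mean 1.35 CPM against a limit of 0.153), with an adjusted p of 1.46e-07 by edgeR. The fitted fold change is larger, but it depends on the prior count because DMSO is near 0. Its neighbors Cxcl9 and Cxcl11, which share the receptor and lie on either side on chromosome 5, did not follow to a detectable level: Cxcl9 had 4, 3 and 1 counts in DMSO and 0, 0 and 1 in YJ1206 cells, and Cxcl11 had 2 to 3 and 0 to 4. Even with treatment Cxcl10 stood at 2.09 ± 0.866 TPM (SD, n = 3), below Cxcl5 at 49.1 ± 1.74. An exon of Cxcl10 overlaps an exon of Art3 on the other strand.

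The 250 bases before the start of Cxcl10, Cxcl1 and Cxcl15 are shown because these members of chromosome 5 behaved differently: from near 0 to detected, raised, and lowered. Sequences are from RefSeq on build GRCm38.p6, read 5′ to 3′ in the direction of the gene, at chr5:92348890-92349139 (minus strand), chr5:90890995-90891244 (plus strand) and chr5:90794284-90794533 (plus strand). Capitals mark matches on either strand to GAAANNGAAA, letters like those of interferon response elements, or to GGGNNNTTCC, letters like those of NF-κB sites.
Cxcl10: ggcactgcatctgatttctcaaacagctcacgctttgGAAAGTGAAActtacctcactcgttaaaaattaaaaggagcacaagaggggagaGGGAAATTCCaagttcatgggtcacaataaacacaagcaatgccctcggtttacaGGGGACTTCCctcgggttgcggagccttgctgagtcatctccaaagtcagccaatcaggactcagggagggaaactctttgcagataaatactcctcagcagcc
Cxcl1: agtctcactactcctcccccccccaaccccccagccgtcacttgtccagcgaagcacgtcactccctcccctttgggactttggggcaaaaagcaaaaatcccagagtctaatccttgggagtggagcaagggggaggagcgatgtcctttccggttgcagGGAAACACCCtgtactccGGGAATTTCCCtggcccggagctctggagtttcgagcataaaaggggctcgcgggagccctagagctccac
Cxcl15: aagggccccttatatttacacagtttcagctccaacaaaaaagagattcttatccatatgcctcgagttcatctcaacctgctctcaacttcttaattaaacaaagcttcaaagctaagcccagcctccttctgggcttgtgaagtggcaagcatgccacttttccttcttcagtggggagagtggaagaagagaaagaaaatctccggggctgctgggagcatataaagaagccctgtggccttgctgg
Cxcl10 held a GAAANNGAAA match 213 bases before its start and GGGNNNTTCC matches at 159 and 104 bases. Cxcl1 held GGGNNNTTCC matches at 89 bases and, overlapping each other on both strands, at 71 and 70 bases. Cxcl15 held neither. Over all 32851 promoter entries of the same length, 2.98% held GAAANNGAAA and 4.65% held GGGNNNTTCC. Among the 53 entries of 46 members, 3 held the former (Cxcl10, Cxcl14 and Ccl19) and 9 held the latter (Ccl1, Ccl9, Ccl20, Ccr3, Ccr6, Cxcl1, Cxcl2, Cxcl3 and Cxcl10). A match is a description of letters and not a site. The group includes Ccl9, whose transcript fell in the cells, and 6 members with a match that were not detected: Ccl1, Ccl19, Ccl20, Ccr3, Ccr6 and Cxcl3. Another 14 members, Cxcl5 among them, had no promoter entry.

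Of the 4 listed ligands of the mucosal and skin homing receptors CCR9 and CCR10, Ccl28 and Ccl25 were lower in treated cells. Ccl28, which acts on CCR10 and CCR3, was at 2.41, 2.68 and 2.42 CPM in DMSO and 0.500, 0.528 and 0.922 in YJ1206 cells, with 47 to 52 counts against 7 to 12. The groups were separate, and the log2 fold change was -1.94 ± 0.32 (adjusted p = 5.58e-06 by edgeR). Among the cells, Ccl28 met the detection rule only with DMSO, the group where it was high. Ccl25 fell from 3.89, 5.62 and 4.03 CPM to 2.07, 1.51 and 2.07, again without overlap, at a log2 fold change of -1.26 ± 0.23 (adjusted p = 1.70e-05 by edgeR). Exons of Ccl25 overlap Elavl1 on the other strand. Ccl27a, a CCR10 ligand of the skin whose exons overlap Il11ra1 on the other strand, was at 1.55 to 1.79 CPM in DMSO and 1.08 to 1.22 in YJ1206 cells. Its libraries did not overlap, but the fit gave -0.54 ± 0.30 with an adjusted p of 0.107 by edgeR, and it passed on total counts (-0.73, adjusted p = 0.0310). Ccl27b was at 0 throughout.

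Ccl9, a ligand of CCR1 that draws myeloid cells, was at 2.87, 2.63 and 2.42 CPM in DMSO and 1.14, 1.13 and 0.922 in YJ1206 cells. The groups were separate, with a log2 fold change of -1.30 ± 0.28 (adjusted p = 0.000151 by edgeR). Its neighbors Ccl3, Ccl4, Ccl5 and Ccl6 did not exceed 3 counts in any cell library, nor did the monocyte attractants Ccl2, Ccl7, Ccl8 and Ccl12. Cx3cl1, or fractalkine, a chemokine anchored in the membrane, was at 4.30, 5.0 and 4.78 CPM in DMSO and 6.08, 7.62 and 5.30 in YJ1206 cells. All treated libraries were higher, at a log2 fold change of 0.43 ± 0.16 (adjusted p = 0.0180 by edgeR), but on log2(TPM + 1) the difference was 0.04 (adjusted p = 0.812), and without YJ1206 library 2 it was 0.28 (adjusted p = 0.149).

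Receptors were near the detection limit in the cells. Ccr9, the receptor of CCL25, was at 0.512, 0.825 and 0.805 CPM in DMSO and 1.5, 0.980 and 1.38 in YJ1206 cells, and its log2 fold change of 0.85 ± 0.37 had an adjusted p of 0.0383 by edgeR. That call held in 1 of 12 alternatives, and exons of Ccr9 overlap Slc6a20a on the other strand. Ccr2 (0.749 against 0.522 CPM), Cx3cr1 (0.681 against 1.02 CPM) and Cxcr2 did not pass. Cxcr2 had 15, 21 and 16 counts in DMSO and 16, 1 and 13 in YJ1206 cells, so a single library set its mean. Ackr3, which removes CXCL12 and CXCL11, was at 11.1 to 12.7 CPM in DMSO and 10.7 to 11.5 in YJ1206 cells, with overlap and an adjusted p of 0.348 by edgeR. On TPM it was lower, at 9.70 ± 1.43 against 5.59 ± 0.838 (SD, n = 3), with a difference of -0.70 on log2(TPM + 1) (adjusted p = 0.00196 by limma).

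Genes outside the symbol rule were read beside the family. Of 8 relatives, 2 could be tested in the cells, and Mif, an atypical ligand of CXCR2 and CXCR4, rose from 136 to 183 CPM. Of all genes tested in the cells 76.1% passed, 37.8% higher and 38.3% lower. Of 26 genes that carry receptor signals, 16 could be tested, 8 rose and 7 fell. Rgs2, which shortens G protein signals, rose most among these, from 180 ± 4.58 to 632 ± 11.5 CPM (SD, n = 3), and the beta-arrestin genes Arrb1 (87.8 to 63.5 CPM) and Arrb2 (19.0 to 14.4 CPM) fell, as did the kinase Grk6, while Grk5 rose from 20.3 to 37.2 CPM. Among marker genes, Cd3d fell from 4.09 to 1.56 CPM and Cd68 rose from 1.02 to 4.28 CPM, with 3 of the 6 T cell markers and 7 of the 8 macrophage markers at no more than 3 counts in any cell library. Their part in the chemokine results was not tested.

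In tumors YJ1206 was accompanied by higher Ccr1, Ccl12, Ccl4, Cxcl17, Cxcl10 and Cx3cl1 and by lower Ccr8, Ccl25, Ccl28 and Cxcl1. The fit tested 15558 genes, including 38 of the 39 detected members (Ccl22 did not pass the filter) and the undetected Ackr2. Of these 39 members 10 passed, 6 higher and 4 lower, where 26.8% of all genes passed, 11.9% higher and 14.9% lower, so the share called is again near the background. The median log2 fold change was 0.20 over the members and 0.01 over all genes. With libraries 1 and 2 alone no member passed (10 had an unadjusted p under 0.05 by edgeR), and of 15684 genes 1 passed, a background of 0.00638%. For the members called with all 3 libraries, the adjusted p by edgeR then ran from 0.134 for Ccr1 to 0.358 for Cxcl1. DESeq2 was run on all 3 libraries only, where it called 12 members.

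**Figure D3:**
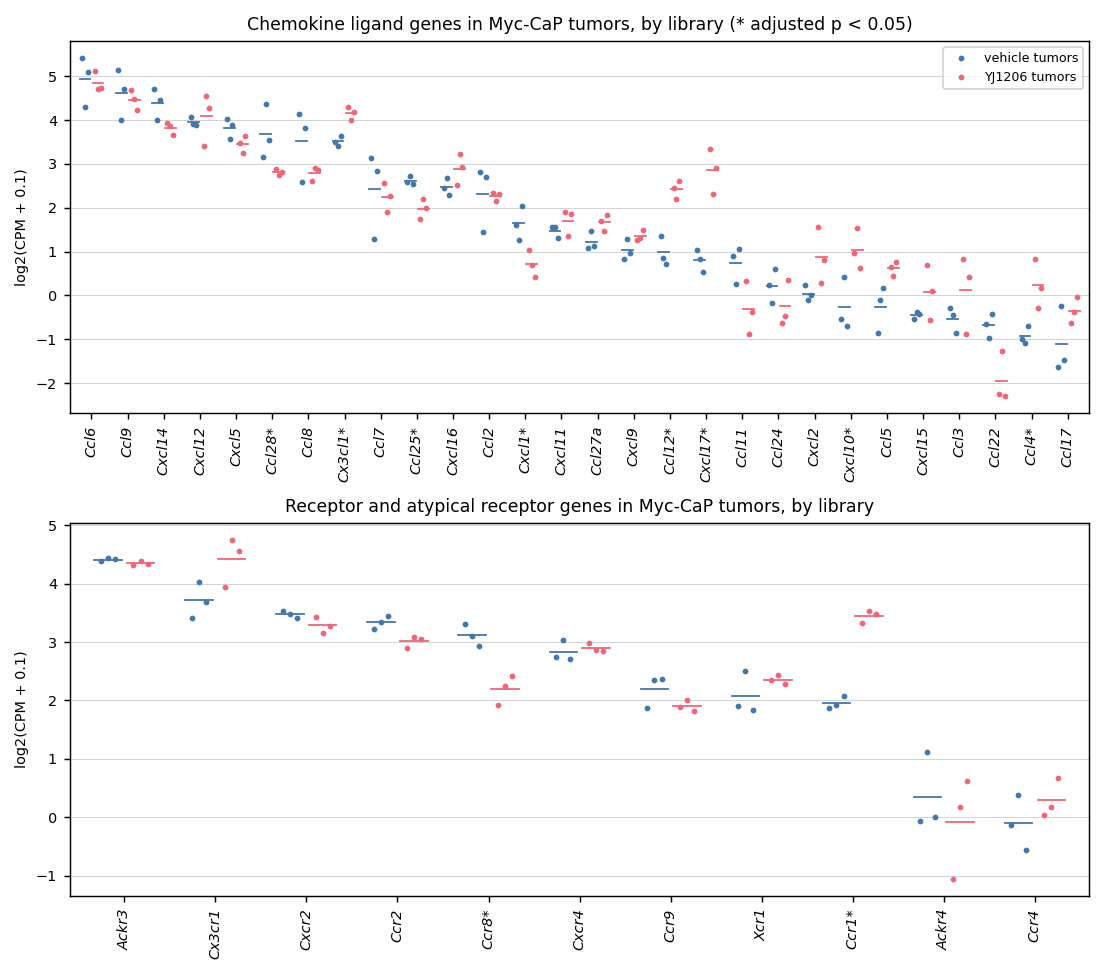
The 39 members detected in tumors, as log2(CPM + 0.1) in each vehicle and YJ1206 library (points) with the mean of 3 (line), with 28 ligands above and 11 receptors below, ordered by the vehicle mean, where an asterisk marks an adjusted p under 0.05. Cxcl17, Ccl12 and Ccr1 are separate upward and Ccr8 downward, and the vehicle points of Ccl8, Ccl7 and Ccl2 spread widely.

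Of the receptors, Ccr1 passed as higher and Ccr8 as lower. Ccr1, found on monocytes, macrophages and neutrophils, was at 3.56, 3.67 and 4.13 CPM in vehicle and 9.93, 11.5 and 11.1 CPM in YJ1206 tumors. The groups were separate by more than their own spread, at a log2 fold change of 1.53 ± 0.13 (adjusted p = 0.000920 by edgeR), and libraries 1 and 2 alone gave 1.57 (adjusted p = 0.134).

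Ccr8 was at 9.77, 8.51 and 7.55 CPM in vehicle and 3.71, 4.65 and 5.25 in YJ1206 tumors. Its groups were separate, with a log2 fold change of -0.92 ± 0.17 (adjusted p = 0.00838 by edgeR) and -1.13 (adjusted p = 0.134) in libraries 1 and 2. Per length, Ccr8 went from the leading receptor at 14.1 TPM to a mean of 7.03 ± 1.17 TPM, below those of Cx3cr1 at 9.23 ± 2.54 and Cxcr4 at 8.33 ± 1.00. In YJ1206 tumors the ranges of Ccr8 (5.83 to 8.15 TPM), Cxcr4 (7.31 to 9.31) and Cx3cr1 (6.39 to 11.3) overlapped, so their order is not settled. Cx3cr1, the fractalkine receptor of monocytes and macrophages, was at 10.6, 16.3 and 12.8 CPM in vehicle and 15.3, 26.8 and 23.4 in YJ1206 tumors. The groups overlapped and it missed the threshold (0.72 ± 0.23, adjusted p = 0.0587 by edgeR), but it passed without vehicle library 2 (0.91, adjusted p = 0.0178) and with DESeq2 (0.72, adjusted p = 0.0124). Ccr2 (10.1 against 7.99 CPM, adjusted p = 0.0747 by edgeR), Cxcr2, Cxcr4, Ccr4, Ccr9, Xcr1, Ackr3 and Ackr4 did not pass. Exons of Ackr4 overlap Acad11, and those of Cx3cr1 overlap Gm33858, on the other strand. The CXCR3 gene itself had 5, 1 and 0 counts in vehicle and 7, 2 and 6 in YJ1206 tumors, and Cxcr6 had 3 to 6 and 0 to 4.

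Among ligands, Cxcl17, a mucosal attractant of myeloid cells, had the largest log2 fold change of the members that passed in tumors. It was at 1.94, 1.69 and 1.36 CPM in vehicle and 10.1, 4.87 and 7.42 in YJ1206 tumors. All treated libraries were well above, at 2.15 ± 0.30 (a 4.43-fold difference, adjusted p = 0.00319 by edgeR), and libraries 1 and 2 gave 2.04 (adjusted p = 0.135). In the cells Cxcl17 stayed under the detection limit, with 2 counts per DMSO library and 3 to 6 after YJ1206. Of the other CXC ligands outside the CXCR2 and CXCR3 classes, Cxcl14 was at 21.2 ± 5.11 against 14.1 ± 1.34 CPM (SD, n = 3) with an adjusted p of 0.0532 by edgeR. It passed as lower with DESeq2 (adjusted p = 0.0166), with no filter (adjusted p = 0.0422) and without vehicle library 2 (adjusted p = 0.00251). Cxcl12 and Cxcl16 did not pass. Exons of Cxcl16 overlap Zmynd15 on the other strand.

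The 4 monocyte attractants, which lie next to each other with Ccl11 on chromosome 11 (82035571 to 82116799, GRCm38), gave 1 call, a higher Ccl12. Ccl12 was at 2.48, 1.72 and 1.55 CPM in vehicle and 5.40, 4.52 and 5.98 in YJ1206 tumors, without overlap, at a log2 fold change of 1.45 ± 0.22 (adjusted p = 0.00435 by edgeR) and 1.24 (adjusted p = 0.141) in libraries 1 and 2. Ccl8, on the next gene position, was at 17.6, 5.88 and 14.1 CPM in vehicle and 6.0, 7.42 and 7.21 in YJ1206 tumors. Vehicle library 2 lay among the treated values and the difference did not pass (-0.85 ± 0.36, adjusted p = 0.126 by edgeR), while without that library it was -1.20 (adjusted p = 0.000904) and with DESeq2 -0.86 (adjusted p = 0.0471). Ccl2 (6.89, 2.62 and 6.39 CPM in vehicle) and Ccl7 (8.73, 2.36 and 7.10 CPM) were low in the same vehicle library. They passed as lower only without it (-0.49, adjusted p = 0.0350, and -0.76, adjusted p = 0.0249), and without vehicle library 1 both estimates were slightly positive. Per length the order of means changed from Ccl8, Ccl7, Ccl2, Ccl12 in vehicle to Ccl8, Ccl12, Ccl7, Ccl2 in YJ1206 tumors. In vehicle the ranges of Ccl7 (6.15 to 23.8 TPM), Ccl2 (6.7 to 18.4) and Ccl12 (7.58 to 12.3) overlapped, so their order is not settled. In YJ1206 tumors Ccl12 stood at 24.5 ± 3.57 TPM and the ranges of Ccl7 and Ccl2 overlapped.

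Of the CC ligands Ccl3, Ccl4, Ccl5, Ccl6 and Ccl9, which draw myeloid cells and T cells, 1 of 5 was higher. Ccl4 had 9, 10 and 8 counts in vehicle and 31, 16 and 20 in YJ1206 tumors, a separate but low range, with a log2 fold change of 1.41 ± 0.40 (adjusted p = 0.0391 by edgeR). Ccl4 met the detection rule only in YJ1206 tumors, the group where it was high, and it no longer passed in 5 of the 6 fits with a library left out. Ccl3 (7 to 17 against 10 to 31 counts) and Ccl5 (10, 22 and 16 against 27, 28 and 31 counts, adjusted p = 0.0786 by edgeR) did not pass. Ccl6, second in level in vehicle tumors, and Ccl9 did not pass either, with 42.8, 19.5 and 34.3 CPM of Ccl6 in vehicle and 34.9, 26.0 and 26.5 in YJ1206 tumors. Vehicle library 2 was again the lowest.

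Cxcl10 was at 0.585, 1.24 and 0.517 CPM in vehicle tumors and 1.86, 2.82 and 1.44 in YJ1206 tumors, from 8 to 33 and 28 to 63 counts. Cxcl10 met the detection rule only in the YJ1206 groups, where it was high. The groups did not overlap, and the log2 fold change of 1.34 ± 0.41 passed narrowly (adjusted p = 0.0489 by edgeR). It kept its threshold in 1 of the 6 fits that left out a library, the one without vehicle library 2. Cxcl9 (1.97 against 2.46 CPM) and Cxcl11 (2.69 against 3.21 CPM) were detected in both groups and did not pass (adjusted p = 0.302 and 0.433 by edgeR). Cx3cl1 was at 11.3, 10.6 and 12.3 CPM in vehicle and 19.6, 16.0 and 18.1 in YJ1206 tumors, clearly apart, at 0.65 ± 0.12 (adjusted p = 0.00710 by edgeR). On log2(TPM + 1) its difference was 0.24 (adjusted p = 0.424 by limma), and its TPM ranges of 5.63 to 9.08 and 7.85 to 10.6 overlapped. The cause of the smaller difference on TPM was not tested.

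Cxcl1 was lower in treated tumors, at 2.97, 2.32 and 4.0 CPM in vehicle and 1.96, 1.52 and 1.24 in YJ1206 tumors (-0.96 ± 0.28, adjusted p = 0.0396 by edgeR). Like that of Ccl4 and Cxcl10, this call held in 1 of 6 fits that left out a library. Cxcl5 was at 11.8 to 16.2 CPM in vehicle and 9.35 to 12.4 in YJ1206 tumors, with overlap (adjusted p = 0.116 by edgeR), and Cxcl2 at 0.825 to 1.08 and 1.12 to 2.84 CPM (adjusted p = 0.0955 by edgeR). Cxcl15, the second ligand of the cells, was down to 10 to 18 counts in vehicle and 13 to 28 in YJ1206 tumors.

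Ccl25 and Ccl28 were lower in tumors as in cells. Ccl25 was at 5.94, 6.48 and 5.75 CPM in vehicle and 3.27, 4.52 and 3.86 in YJ1206 tumors, without overlap (-0.64 ± 0.16, adjusted p = 0.0242 by edgeR), a call that held in 3 of 6 fits with a library left out. Ccl28 was at 8.78, 20.5 and 11.6 CPM in vehicle and 7.26, 6.62 and 6.96 in YJ1206 tumors. Vehicle library 2 was the high one here. The difference was -0.98 ± 0.30 (adjusted p = 0.0462 by edgeR) with it and -0.55 (adjusted p = 0.0281) without it, and the call held in 2 of 6 such fits. Ccl27a was at 2.03 to 2.66 CPM in vehicle and 2.68 to 3.45 in YJ1206 tumors and did not pass (adjusted p = 0.135 by edgeR).

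The eosinophil attractants Ccl11 (1.61 against 0.754 CPM, adjusted p = 0.0867 by edgeR) and Ccl24, and the CCR4 ligand Ccl17, did not pass. Ccl22, the other CCR4 ligand, had 12, 11 and 10 counts in vehicle and 2, 7 and 2 in YJ1206 tumors, which left it under the filter of the test. Without vehicle library 2, 18 members passed in tumors, 8 higher and 10 lower, where 36.2% of all genes passed, 16.7% higher and 19.5% lower. Besides those named above, Ccl11 and Cxcl5 were then lower and Ccl17 and Xcr1 higher. The fit without vehicle library 2 rests on vehicle libraries 1 and 3. Library 3 may not be a separate tumor, so the p-values of that fit may be too small. Without vehicle library 1, with the same limit, 7 members passed, 4 higher and 3 lower, where 3629 of 15680 genes passed.

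Some markers of host cells differed between the same tumor groups, where 26.8% of all genes passed, 11.9% higher and 14.9% lower. The complement genes C1qa, C1qb and C1qc, which macrophages express, were the 3 of 7 tested macrophage and monocyte markers that rose (C1qa from 31.2 to 47.9 CPM), and the list summed to 184 to 256 TPM in vehicle and 250 to 333 in YJ1206 tumors. Of 6 leukocyte markers none passed, with sums of 140 to 352 and 402 to 434 TPM. Of the T cell list 1 of 4 tested rose, Cd8a from 3.99 to 6.73 CPM (adjusted p = 0.0210 by edgeR), with sums of 10.2 to 13.2 and 10.7 to 12.9 TPM, and the defining marker Cd3e had at most 11 counts. Of 5 tested neutrophil markers S100a9 fell, with sums of 18.6 to 24.0 and 7.29 to 14.7 TPM. None of 7 fibroblast markers passed (226 to 735 and 165 to 364 TPM), nor did the 3 tested dendritic cell markers (2.72 to 3.29 and 4.03 to 5.08 TPM), the 1 tested NK cell marker (1.47 to 2.03 and 1.67 to 1.99 TPM) and the 1 tested B cell marker (0.907 to 1.34 and 0.530 to 1.16 TPM). The endothelial marker Cdh5 rose as 1 of 6 (61.5 to 62.6 and 67.7 to 74.5 TPM), and none of 3 tested epithelial markers passed (61.1 to 78.7 and 74.9 to 81.3 TPM). NK cell Gzma did not exceed 3 counts in any tumor library, and Epcam had at most 4. The part of cell composition in the chemokine results was not tested.

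Over all genes tested in tumors 26.8% passed, 11.9% higher and 14.9% lower. Of 25 tested signaling genes behind the receptors, 4 rose in tumors, namely Gng2, Pik3cg, Vav1 and Rgs3, and 2 fell, Grk6 and Rac1. Vav1, a leukocyte exchange factor, went from 4.10 to 6.61 CPM and Pik3cg, the kinase activated by G protein subunits, from 3.98 to 6.05 CPM. Of 7 tested relatives, Cd74, which binds MIF, fell from 26.7 ± 10.7 to 13.6 ± 1.10 CPM (SD, n = 3, adjusted p = 0.0392 by edgeR).

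**Figure D4:**
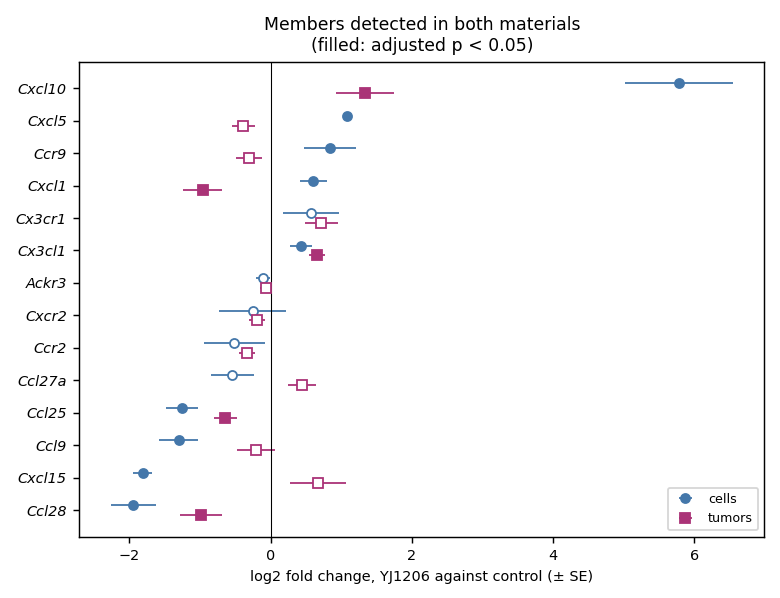
Log2 fold change of YJ1206 against control, with its SE, for the 14 members detected in both cells (circles) and tumors (squares), where filled symbols have an adjusted p under 0.05. Ccl25 and Ccl28 lie left of 0 and Cx3cl1 and Cxcl10 right of 0 in both, Cxcl1 lies on opposite sides, and the cell value of Cxcl10 depends on the prior count.

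Cells and tumors were then set against each other. Of the members that passed, 5 did so in both, which is 55.6% of the 9 in cells and 50% of the 10 in tumors: Cxcl10 and Cx3cl1 were higher and Ccl25 and Ccl28 lower in both, and Cxcl1 was higher in cells and lower in tumors. Over the 11235 genes tested in both, 34.3% of those called in cells were also called in tumors, and 81.8% of those called in tumors were also called in cells. Of the 10 members called in tumors, 5 could be tested in cells, and all 5 were called there. The 50% therefore does not have the same base as the 81.8%. The difference between the effects was tested as an interaction in 1 fit over all 12 libraries and 15328 genes, where 46.8% of the genes passed, and 9 of 38 members did. For 3 of these, Ccr8, Cxcr4 and Ccl11, the cell libraries held no more than 5 counts, so their interaction has little meaning. The other 6 were detected in both materials. Of these, Cxcl5 (tumor effect minus cell effect -1.50 ± 0.17, adjusted p = 8.72e-06 by edgeR) and Cxcl1 (-1.60 ± 0.37, adjusted p = 0.00275) had a positive difference in cells and a negative one in tumors. Cxcl15 differed in the other direction (2.45 ± 0.38, adjusted p = 0.000132), as did Ccl27a (0.96 ± 0.30, adjusted p = 0.0170). Ccr9 (-1.18 ± 0.36, adjusted p = 0.0149) and Cxcl10 (-4.61 ± 1.06, adjusted p = 0.00291), whose cell control is near 0, were the others. The fit shares 1 estimate of spread between materials whose biological coefficients of variation were 0.0322 in cells and 0.139 in tumors.

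**Figure D5:**
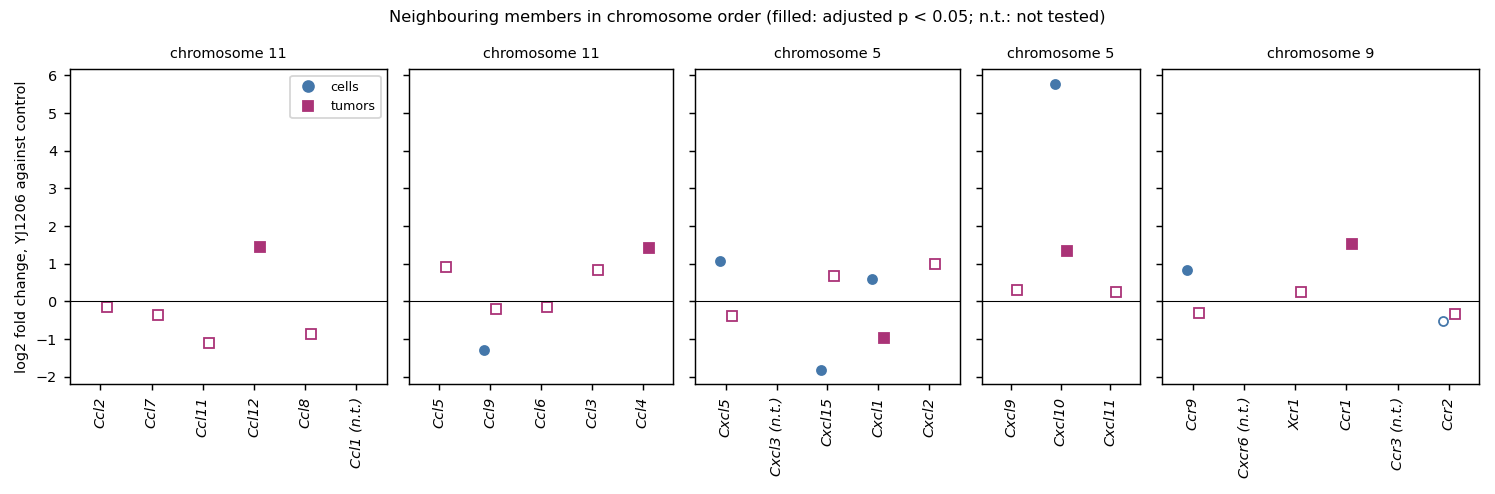
Log2 fold change of YJ1206 against control for members that are neighbors on a chromosome (gaps under 150 kb, at least 3 tested in tumors), in chromosome order from left to right, for cells (circles) and tumors (squares), where filled symbols have an adjusted p under 0.05. In 4 of the 5 runs both positive and negative tumor values occur, while Cxcl9, Cxcl10 and Cxcl11 are all positive, and the cell value of Cxcl10 depends on the prior count.

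Chemokine genes lie in runs on the chromosomes, and the values of neighbors are given here without a test of shared response. On chromosome 5 (90759360 to 90905938) the run Cxcl5, Cxcl3, Cxcl15, Cxcl1 and Cxcl2 held a raised, an undetected, a lowered, a raised and an undetected member in the cells, with Cxcl15 and Cxcl1 88.2 kb apart. In tumors only Cxcl1 of this run passed, as lower. On chromosome 11 (83525778 to 83664683) Ccl5, Ccl9, Ccl6, Ccl3 and Ccl4 held 1 member that passed in cells, Ccl9, and another that passed in tumors, Ccl4. In the run of Ccl2, Ccl7, Ccl11, Ccl12 and Ccl8 the tumor estimates were negative except for Ccl12, and those 4 negative ones passed as lower without vehicle library 2. On chromosome 9 (123678439 to 124113557) the receptors Ccr9, Cxcr6, Xcr1, Ccr1, Ccr3 and Ccr2 held the rise of Ccr1 in tumors, while Ccr2 was at 10.1 ± 0.788 CPM in vehicle and 7.99 ± 0.543 in YJ1206 tumors (SD, n = 3). Coordinates are those of GENCODE vM21 on GRCm38, in which all 60 identifiers were found.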

How the data were processed

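RNA was sequenced from 6 cultures and 6 tumors, 3 libraries per group. The authors deposited, for cells and tumors separately, a table of estimated counts, some of them not whole numbers, and one of TPM values, which the authors scaled for length and to 1000000 per library. The submitters' processing notes name kallisto and GRCm38 (mm10), without a version. The methods describe ribosomal RNA depletion, while the labels name polyA RNA for cells and total RNA for tumors.

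Library columns were matched to samples by the library names in the labels, and the groups and replicate numbers are those of the sample titles. Estimated counts were rounded. Each comparison was fitted by quasi-likelihood with edgeR 4.0.16 (R 4.3.3; filterByExpr, TMM factors, glmQLFit and glmQLFTest), with Benjamini-Hochberg adjustment over all genes tested and a threshold of 0.05. CPM values use TMM-scaled library sizes. Standard errors are those of the log2 fold change. A group at no more than 3 counts in every library was taken to be at the limit of detection. Such limits cover counting error only. The libraries are stated to be independent biological replicates, and no 2 libraries of a group were identical. DESeq2 1.42.0 on counts and limma 3.58.1 on log2(TPM + 1) and log2(TPM + 0.1) were alternatives, with total-count scaling, no filter, each library left out, a replicate block and tumor libraries 1 and 2 only. On simulated counts, edgeR recovered 84 of 93 genes changed by 1 log2 unit in cells (11544 genes) and 66 of 100 in tumors (15238 genes). Of the simulated calls, 5.24% in cells and 5.42% in tumors were false. Only 200 random genes were changed, equally up and down, while 76.1% of genes passed in the real cells. The simulation therefore does not cover a change in most genes.

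Described genes are members with at least 10 counts in 3 libraries of a group. The members, the lists of relatives, signaling genes and cell markers, and the motifs were chosen with earlier results of these data known. Of the genes that match the symbol rule 1, and of the cell markers 3, stayed in every fit and are not reported here. Counting without strand could share reads between overlapping genes, and the setting is not given in the sources used here.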

Additional observations from a re-analysis of the deposited data

Results flagged for a closer look

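The effect of YJ1206 differed between tumors and cells, by the interaction test of edgeR, for 9 of 38 members, where 46.8% of all genes passed. As tumor effect minus cell effect on the log2 scale, the difference was -1.50 for Cxcl5, -1.60 for Cxcl1, -1.18 for Ccr9, and 2.45 for Cxcl15 and 0.96 for Ccl27a, all detected in both materials. For Cxcl10 it was -4.61, but its DMSO cells held 0 to 1 counts, so the value depends on the prior count, and on log2(TPM + 1) it was -0.60 (adjusted p = 0.205 by limma). Of these members, Cxcl5, Cxcl1 and Cxcl15 passed in all 19 alternatives. For Ccr8 (-2.62), Cxcr4 (4.32) and Ccl11 (-5.38) the cell side rests on at most 5 counts per library. With 3 libraries per group, single libraries were not tested as outliers.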

How the results depend on the processing

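Of the members called, 9 in cells became 7 to 8 when a library was left out, and 10 in tumors became 5 to 18, with 5 without vehicle library 3, 6 without YJ1206 library 1, 5 without YJ1206 library 3 and 18 without vehicle library 2. With tumor libraries 1 and 2 only it was 0 in tumors and 5 against 9 for the interaction, which otherwise gave 7 to 12 with a library left out, 15 with log2(TPM + 1) and 16 with log2(TPM + 0.1). These settings rest on fewer libraries or another scale, and the cause was not tested. Other settings stayed within 1.5 times the main counts. Same-numbered libraries did not deviate together (r from -0.03 to 0.00 in both materials), and a fit with the replicate block called 8 members in cells, 8 in tumors and 8 for the interaction. A detection minimum of 5 or 20 counts gave 40 or 33 detected members. The estimates that changed sign were not called in all 3 libraries nor in the setting that turned them, though Ccl2 and Ccl7 passed as lower without vehicle library 2. On log2(TPM + 1) and log2(TPM + 0.1), Ackr3 in tumors gave 0.074 and 0.078 and Cxcl12 gave -0.074 and -0.10. Ccr4 gave -0.045 with tumor libraries 1 and 2. With a library left out, the range was -0.71 to 0.28 for Cxcr2 in cells and, in tumors, -0.85 to 0.13 for Ackr4, -0.49 to 0.11 for Ccl2, -0.41 to 0.13 for Ccl6, -0.76 to 0.044 for Ccl7, -0.47 to 0.095 for Ccl9, -0.055 to 0.46 for Cxcl12 and -0.0024 to 0.17 for Cxcr4. Counts were low for the receptors in the cells, at 0 to 21 per library, and for Cxcl10, at 0 to 25.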
